A study of Homo sapiens with 2 samples.

Results

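The data described here are the called ChIP-seq peak summits of human chromosome 12 that lay more than 1000 bp from either end of every protein-coding gene in the RefSeq annotation of GRCh38. These summits, called members here, numbered 14792 of the 282546 summits in both peak lists together. The TCF19 overexpression library contributed 5367 of its 112212 summits and the control library 9425 of its 170334. Members made up 83.7% of the 6410 chromosome 12 summits of the overexpression library and 91.2% of the 10340 of the control library. The chromosome was picked because peaks were dense on it in these same lists. Its density, pileups, backgrounds and overlaps are therefore descriptions, and no test was made of them.

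TCF19 was mapped by chromatin immunoprecipitation and sequencing in Ishikawa cells, an established line from a human endometrial cancer. The overexpression cells carried a lentivirus that expresses TCF19, and the control cells a control lentivirus. Both populations met virus at 50% confluency for 24 h and were selected with puromycin, and both were fixed for 10 min in 1% formaldehyde and precipitated with the same antibody to TCF19. Each group had 1 library and no replicate, so no spread between cultures is known. The sources used here name neither the promoter of the transgene nor whether the selected cells were a pool or a clone.

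TCF19 is a nuclear protein with a forkhead-associated domain and a PHD finger, a fold that reads histone tails, and it is known for links to cell proliferation. In ChIP-seq, part of the reads come from DNA that the antibody did not enrich. The number of such reads in a stretch of genome depends on how many copies of it the cells carry, on how readily its chromatin shears and on how well short reads can be placed there. Where no input library is subtracted, peaks can be called more often in stretches with more of these reads. Chromosome 12 has a short arm, 12p, and a long arm, 12q, with the centromere between them, and it carries growth genes such as CCND2, CDK4 and MDM2.

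The sequences that follow are 300-base windows around starts of long noncoding RNA genes (mostly upstream of the start, RefSeq, GRCh38.p14, in the direction of the gene) in which both libraries had a member. They are shown because both libraries called a summit in the same 300 bases there, on the 12p, proximal 12q and distal 12q stretches that the results compare. Capitals mark the bases from the summit of one library to that of the other. The first 2 lie on 12p, the next 2 on proximal 12q and the last 2 on distal 12q.
LOC105369728, chr12:9647939-9648238, minus strand: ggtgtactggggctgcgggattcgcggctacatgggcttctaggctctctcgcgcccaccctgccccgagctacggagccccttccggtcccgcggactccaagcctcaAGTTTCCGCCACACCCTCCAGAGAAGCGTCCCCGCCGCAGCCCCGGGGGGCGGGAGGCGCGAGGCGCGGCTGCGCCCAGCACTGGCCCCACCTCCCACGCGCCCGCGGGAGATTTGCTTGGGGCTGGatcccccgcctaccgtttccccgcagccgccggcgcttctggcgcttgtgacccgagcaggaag
LOC105369666, chr12:13101180-13101479, plus strand: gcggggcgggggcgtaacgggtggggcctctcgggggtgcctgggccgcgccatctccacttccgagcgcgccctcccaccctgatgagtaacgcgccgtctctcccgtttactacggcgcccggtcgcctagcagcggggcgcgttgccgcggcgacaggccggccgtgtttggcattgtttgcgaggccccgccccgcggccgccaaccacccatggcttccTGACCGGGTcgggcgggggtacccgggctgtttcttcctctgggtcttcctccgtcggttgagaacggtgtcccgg
MIRLET7IHG, chr12:62602493-62602792, plus strand: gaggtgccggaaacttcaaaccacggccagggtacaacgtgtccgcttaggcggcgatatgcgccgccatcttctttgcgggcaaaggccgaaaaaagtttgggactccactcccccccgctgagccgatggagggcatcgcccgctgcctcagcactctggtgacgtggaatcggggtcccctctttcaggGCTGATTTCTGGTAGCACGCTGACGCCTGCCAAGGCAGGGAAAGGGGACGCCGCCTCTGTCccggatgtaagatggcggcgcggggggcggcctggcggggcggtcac
PPP1R12A-AS2, chr12:79689782-79690081, plus strand: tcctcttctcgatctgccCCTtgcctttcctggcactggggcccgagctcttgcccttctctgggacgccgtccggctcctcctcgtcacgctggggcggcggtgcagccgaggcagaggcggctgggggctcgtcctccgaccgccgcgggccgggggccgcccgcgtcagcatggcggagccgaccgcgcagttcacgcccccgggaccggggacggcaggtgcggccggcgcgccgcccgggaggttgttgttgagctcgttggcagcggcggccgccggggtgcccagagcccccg
LOC105369877, chr12:86264451-86264750, plus strand: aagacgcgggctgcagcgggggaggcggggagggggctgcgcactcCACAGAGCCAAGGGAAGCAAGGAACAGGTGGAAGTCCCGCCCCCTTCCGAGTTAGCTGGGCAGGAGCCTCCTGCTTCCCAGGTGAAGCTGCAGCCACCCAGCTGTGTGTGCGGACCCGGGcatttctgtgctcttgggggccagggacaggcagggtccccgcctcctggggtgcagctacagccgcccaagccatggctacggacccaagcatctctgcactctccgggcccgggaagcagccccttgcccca
LINC02418, chr12:130042293-130042592, minus strand: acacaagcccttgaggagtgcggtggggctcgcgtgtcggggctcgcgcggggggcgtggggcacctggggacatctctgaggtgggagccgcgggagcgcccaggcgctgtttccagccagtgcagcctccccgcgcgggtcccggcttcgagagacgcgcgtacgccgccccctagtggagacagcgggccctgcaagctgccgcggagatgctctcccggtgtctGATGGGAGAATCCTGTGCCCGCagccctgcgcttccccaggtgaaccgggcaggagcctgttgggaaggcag
The mature 5p product of the let-7i hairpin is shown too, with its seed (bases 2 to 8) in capitals, since both libraries had a member at that hairpin.
hsa-let-7i-5p, chr12:62603691-62603712, plus strand: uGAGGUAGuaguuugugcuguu

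At the LOC105369728 window the overexpression library had a summit of 34 reads (95% exact Poisson interval 23.5 to 47.5) and the control library one of 19 (11.4 to 29.7), 126 bp apart. These reads are pileups, the number of fragments over the summit, and all such intervals here cover counting error only. The 2 intervals overlap. LOC105369666 had 18 reads in the overexpression library and 30 in the control library, with summits 8 bp apart. The MIRLET7IHG window, at the start of the host transcript of let-7i, had 35 reads in the overexpression library and 16 in the control library. At PPP1R12A-AS2 the overexpression library had 24 reads and the control library 22, with summits 2 bp apart. On distal 12q, LOC105369877 had 16 reads in the overexpression library and 12 in the control library, and LINC02418 had 18 overexpression and 21 control reads. No library was higher at all 6 windows.

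In all, 41 promoter windows of the RefSeq table on chromosome 12 held a member of both libraries, 29 of them at long noncoding RNA genes. Some of these windows overlap and hold the same summits, such as those of CPNE8 and CPNE8-AS1. They therefore mark fewer than 41 separate places. Of all 1714 windows of the chromosome, 664 were at long noncoding RNA genes. Inside a promoter window lay 71 of the overexpression members, 1.32%, against 1.31% of autosomal summits chosen by the same distance rule. The control library had 60 such members, 0.637%, against 0.672%. The shares on chromosome 12 were thus near those of the autosomes as a whole, and the distance rule itself removes most promoters of protein-coding genes. The 41 windows had a median GC content of 68.0% and 25 CpG dinucleotides, and the 1714 windows of the chromosome a median of 58.7% and 14.

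The let-7i hairpin, the source of a let-7 family microRNA, was the one of 66 chromosome 12 hairpins with a member of both libraries within 150 bp. No count for hairpins of other chromosomes is given here, so whether this count is more than member density alone would give was not tested. The overexpression library had 22 reads at 62603688 (13.8 to 33.3), and the control library 21 reads at 62603595 (13 to 32.1). The hairpins of MIR6074, MIR6760 and MIR1178 had no overexpression member within 150 bp and 1 control member each, with 11, 12 and 22 reads.

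On chromosome 12 as a whole the overexpression library had 42.5 members per Mb (95% exact Poisson interval 41.4 to 43.7) and the control library 74.6 (73.1 to 76.1). Density was counted over the length of the arms outside the gene-end windows and the centromeric stretch. The median of the 21 other autosomes was 33.7 per Mb in the overexpression library, with a range of 24.4 to 61.4. It was 55.2 in the control library, with a range of 41.0 to 73.5. Chromosome 12 was thus 1.26 times the median in the overexpression library, the fifth highest of 22 autosomes, and 1.35 times in the control library, where it was the highest. It held 5.89% of autosomal members of the overexpression library and 6.32% of those of the control library, on 4.81% of the counted length. Unlike the densities, these shares of members include the centromeric stretches, which the counted length leaves out.

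**Figure D1:**
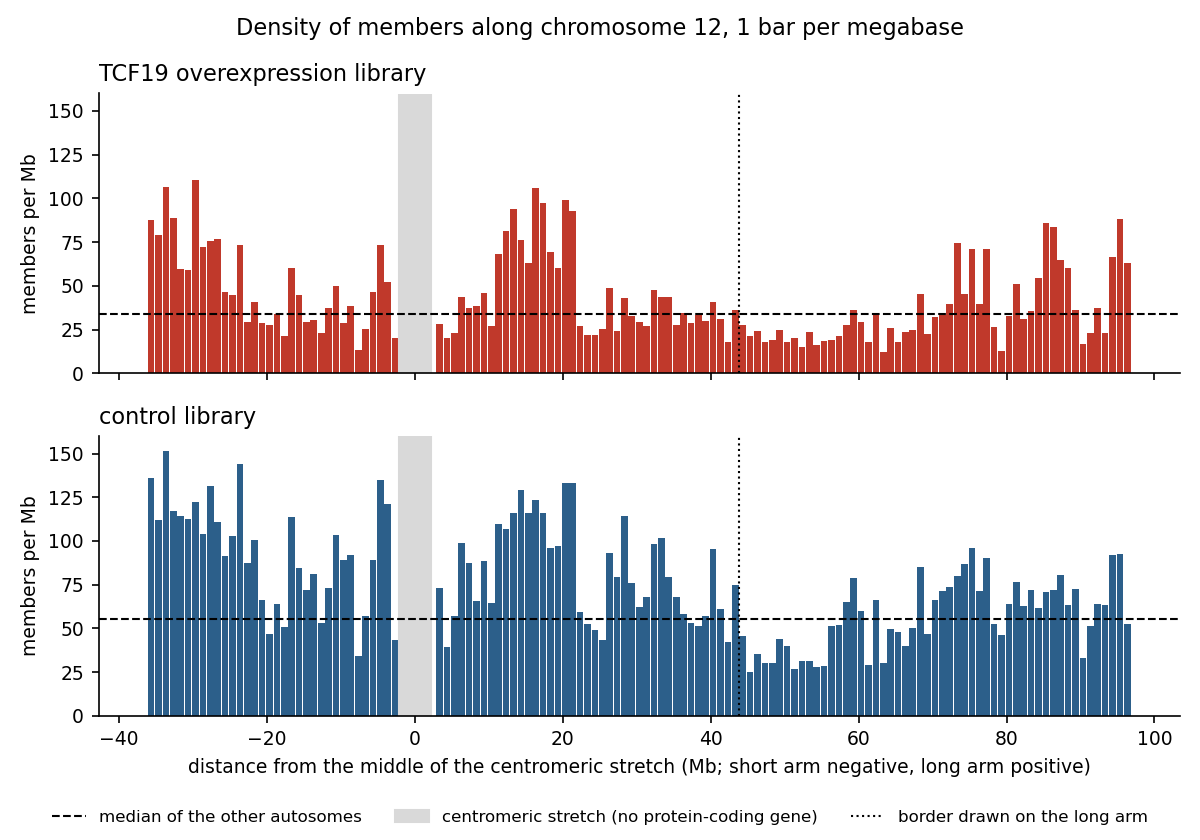
Members per Mb in each megabase of chromosome 12 with at least 0.8 Mb counted, in the TCF19 overexpression library (top) and the control library (bottom), by distance from the middle of the centromeric stretch. The dashed line is the median of the other autosomes (33.7 per Mb in the overexpression library, 55.2 in the control library), the dotted line the border at 80 Mb; the short arm and proximal long arm rise above the median in most megabases, and the 10 Mb after the border lie mostly below it.

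The short arm as a whole was denser than the long arm. On 12p the overexpression library had 50.6 members per Mb (48.2 to 53.1) and the control library 94.0 (90.7 to 97.3). These were 1.46 times the median of the 37 other arms in the overexpression library and 1.65 times in the control library. The short arm was not uniform. Each megabase that starts before 10000001 had at least 58.8 overexpression and 104.2 control members per Mb. Each one that starts from 13000001 to 18000001 had at most 40.9 overexpression and 100.8 control members per Mb. In the control library 12p was the densest of 39 arms, ahead of 20p with 74.6 per Mb. In the overexpression library 12p ranked sixth, behind 19q, 19p, 22q, 17p and 17q. All 5 of those arms are richer in genes, with 13.03 to 30.3 protein-coding genes per counted Mb against 8.71 on 12p. The whole of 12q had 39.6 members per Mb in the overexpression library, 1.15 times the median arm, and 67.7 in the control library, 1.19 times.

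**Figure D2:**
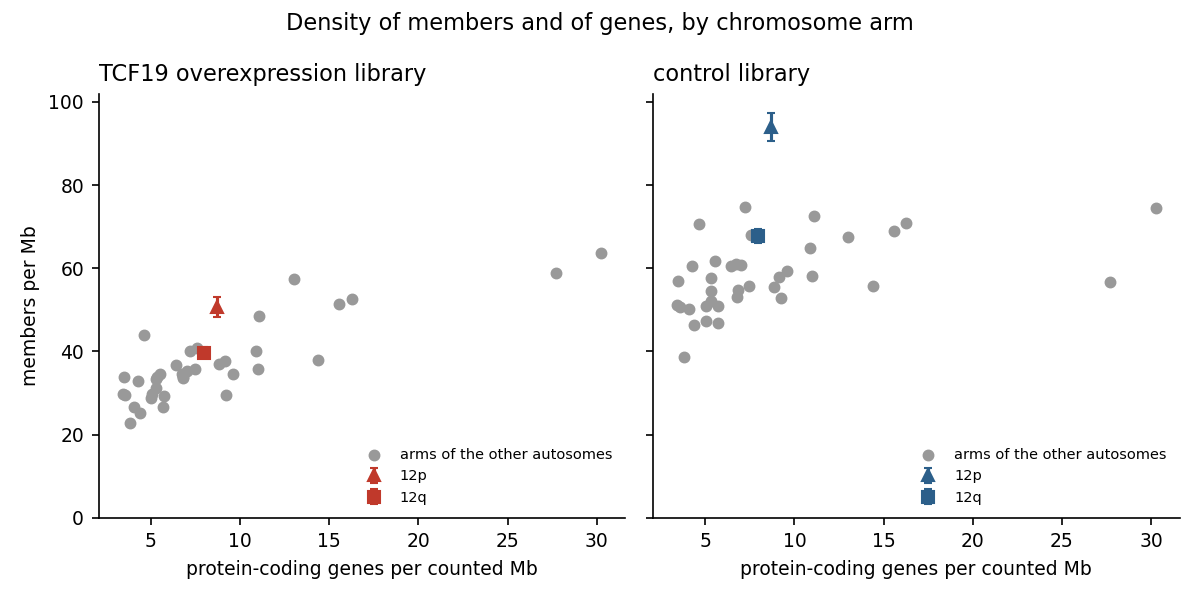
Members per Mb against protein-coding genes per counted Mb for 39 autosomal arms, in the TCF19 overexpression library (left) and the control library (right). Grey points are the arms of the other autosomes, and bars on 12p and 12q are 95% exact Poisson intervals, which cover counting error only; 12p is the highest point in the control library, at 94.0 per Mb, and sixth in the overexpression library, at 50.6.

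The long arm itself was divided into 2 stretches at 80 Mb. From the centromeric stretch to 80 Mb it had 44.9 members per Mb in the overexpression library (42.9 to 47.0) and 81.5 in the control library (78.7 to 84.3). Beyond 80 Mb the overexpression library had 35.6 (34.0 to 37.2) and the control library 57.0 (55.0 to 59.1). On the other autosomes together the overexpression library had 34.1 and the control library 55.8. Neither stretch was uniform. From 70 to 80 Mb the overexpression library had 32.4 members per Mb, less than beyond 80 Mb as a whole, and the control library 64.0. From 80 to 90 Mb the overexpression library had 21.1 and the control library 34.0. The densest overexpression megabase beyond 80 Mb, from 131000001, had 88.4 per Mb against 92.5 in the control library. The 80 Mb border was drawn after the values along 12q had been seen, so the contrast across it is a description. The gene-free centromeric stretch, 34028303 to 38316686, held 42 members of the overexpression library and 80 of the control library.

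Pileups followed the same stretches. The median pileup of members was 15 reads in the overexpression library and 14 in the control library, both on 12p and on 12q to 80 Mb. Beyond 80 Mb it was 13 in the overexpression library and 12 in the control library, the same as on the other autosomes. Median fold enrichments, which are the authors' values, were 4.13 on 12p, 4.14 on 12q to 80 Mb and 3.98 beyond in the overexpression library. For control members they were 4.01, 4.10 and 3.80 over the same stretches.

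The local background of a member is the read density around it, recovered from the deposited fold and p-value, and it cannot fall below the average of the genome. A member at that average lies where the surrounding 10 kb hold no more reads than a typical stretch. Among autosomal summits chosen by the same rule, 24.0% of the overexpression library and 41.0% of the control library were at the average. On chromosome 12 these were 12.2% of overexpression members (11.3 to 13.1, Wilson) and 31.6% of control members (30.7 to 32.6). Within chromosome 12 they were fewest on 12p, with 5.46% in the overexpression library and 26.1% in the control library. Among 39 arms, 12p had rank 2 from the lowest in the overexpression library, where 19p had 3.96%. In the control library it had rank 7. There 19p, 19q, 22q, 20q, 17q and 17p were lower, with 12.7% to 22.3%. Proximal 12q was close to 12p, with 7.46% of overexpression and 30.3% of control members. Beyond 80 Mb the share was 22.9% in the overexpression library and 38.8% in the control library. In both libraries most members sat where the local read density exceeded the genome average. This held for 12p, for each part of 12q taken whole and for the other autosomes together. It did not hold from 80 to 90 Mb, where 57.9% of overexpression and 82.8% of control members were at the average. The share at the average was smaller in the first 80 Mb than beyond it.

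**Figure D3:**
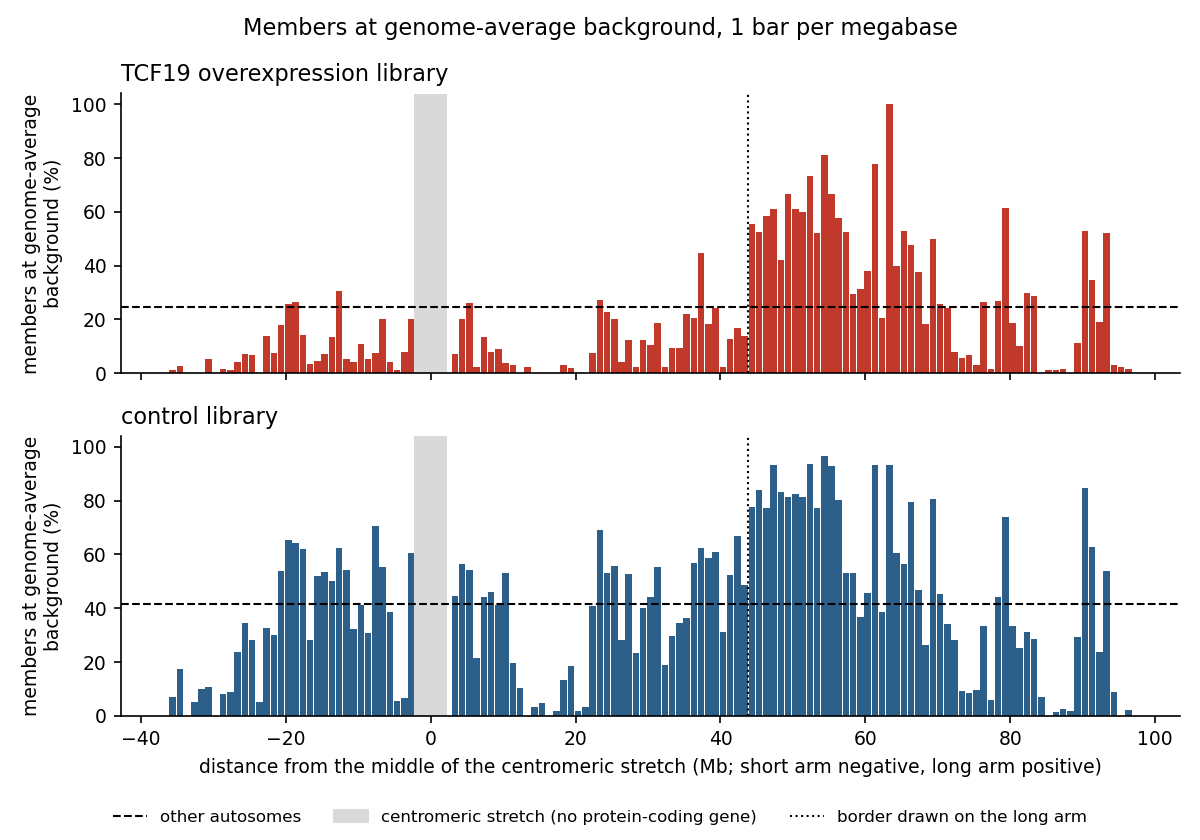
Percent of members whose local background equals the genome average, per megabase of chromosome 12, in the TCF19 overexpression library (top) and the control library (bottom), by distance from the middle of the centromeric stretch. The dashed line is the share on the other autosomes (24.7% in the overexpression library, 41.7% in the control library) and the dotted line the border at 80 Mb; in the overexpression library the last megabase before it has 13.9% and the first after it 55.6%.

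Values on either side of the border are given next, as descriptions. The megabase that starts at 79 Mb had 36 members in the overexpression library and 74 in the control library, and 13.9% of overexpression and 48.6% of control members were at the genome average. The next megabase had 27 overexpression and 45 control members, and 55.6% of overexpression and 77.8% of control members were at the average. Over wider stretches, 75 to 80 Mb had 12.99% of members at the average in the overexpression library (8.57 to 19.2) and 48.8% in the control library (43.4 to 54.2). From 80 to 85 Mb the share was 54.1% in the overexpression library (44.8 to 63.2) and 82.4% in the control library (75.9 to 87.5). The overexpression library had 31.2 members per Mb before 80 Mb and 21.99 after, and the control library 66.1 before and 33.3 after. The stretch before touches 17 protein-coding genes and the one after 11.

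Of the 75 megabases of the first 80 Mb with at least 0.8 Mb counted, none had more than 50% of its overexpression members at the genome average, and the highest was 44.8%. Beyond 80 Mb this held in 19 of 53 megabases, and on the other autosomes in 714 of 2523. In the control library the counts were 25 of 75 megabases before 80 Mb, 25 of 53 beyond it and 1345 of 2522 on the other autosomes.

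Gene density differs along the chromosome, and it moved with both measures. Across the 128 megabases of chromosome 12 the Spearman correlation of member density with the number of genes was 0.73 in the overexpression library and 0.65 in the control library. The densities of the 2 libraries themselves were correlated, with a Spearman rho of 0.88 and a Pearson r of 0.83, and the libraries share the cell line, the gene distribution and the mappability of each megabase. These are descriptions across sites.

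Megabases with like numbers of genes were therefore set side by side. In those touching at most 5 protein-coding genes, the 40 megabases of the first 80 Mb had 34.0 members per Mb in the overexpression library and 70.1 in the control library. The 27 beyond had 23.8 in the overexpression library and 46.3 in the control library, and the 1348 of the other autosomes had 23.9 overexpression and 44.0 control members per Mb. Single chromosomes reached higher values. In such megabases chromosome 22 had 50.4 overexpression and 68.5 control members per Mb. Chromosome 19, with 2 such megabases, had 42.7 and 68.3. Both control values lie inside the interval of the first 80 Mb, 67.5 to 72.7. At the genome average before 80 Mb were 12.04% of overexpression members (10.4 to 13.9) and 43.0% of control members (41.2 to 44.8). Beyond it these were 42.6% of overexpression members (38.8 to 46.5) and 60.5% of control members (57.7 to 63.1). On the other autosomes they were 39.8% of overexpression and 58.2% of control members.

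**Figure D4:**
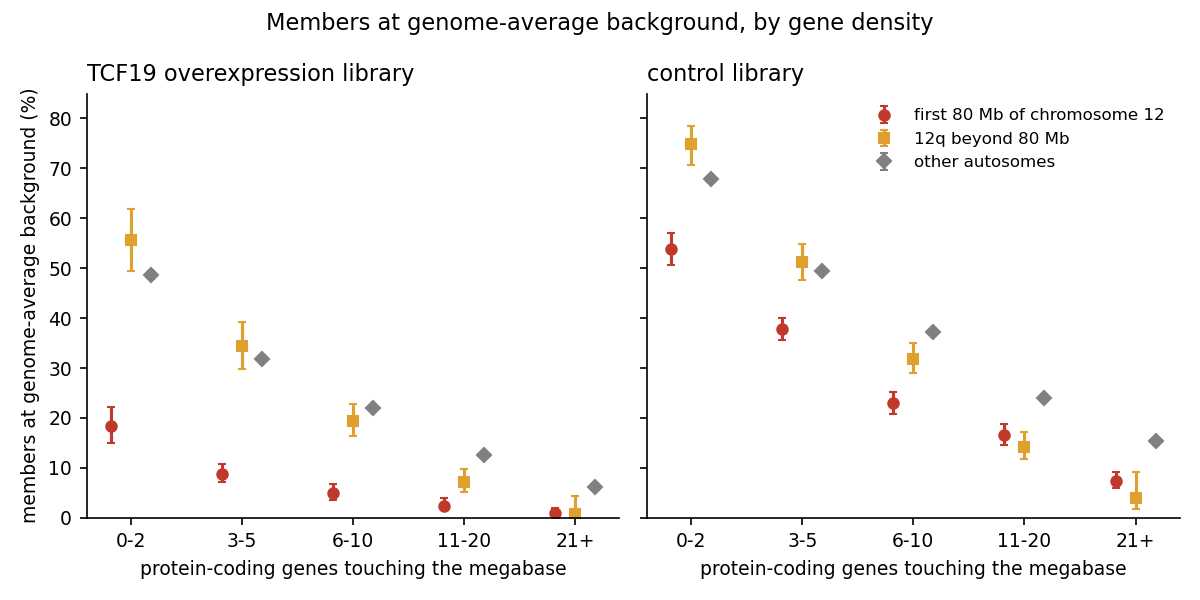
Percent of members at genome-average background by the number of protein-coding genes that touch the megabase, for the first 80 Mb of chromosome 12, for 12q beyond it and for the other autosomes, in the TCF19 overexpression library (left) and the control library (right). Bars are 95% Wilson intervals for counting error; in megabases with at most 10 genes the first 80 Mb lie below both others in both libraries, for example 18.4% against 48.7% on the other autosomes at 0 to 2 genes in the overexpression library.

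The first 80 Mb stood lowest in finer classes of up to 10 genes. With 0 to 2 genes, the share at the average in the overexpression library was 18.4% in the first 80 Mb, 55.7% beyond and 48.7% on the other autosomes. With 6 to 10 genes it was 4.92%, 19.4% and 21.9%. Over the same stretches the control library had 53.8%, 74.8% and 67.9% with 0 to 2 genes, and 22.9%, 31.9% and 37.3% with 6 to 10. With 11 to 20 genes the overexpression library had 2.44%, 7.09% and 12.6%. In that class the control library had 16.6% in the first 80 Mb (14.6 to 18.9) and 14.3% beyond (11.8 to 17.2). It had 24.0% on the other autosomes. The control densities were 111 members per Mb in the first 80 Mb and 76.2 beyond. The class with 21 or more genes had 2 megabases beyond the border. In it the overexpression library had 1.051% (0.534 to 2.06), 0.787% (0.139 to 4.33) and 6.11%. The 0.787% was 1 of 127 members. The control library had 7.33% (5.88 to 9.11), 4.07% (1.75 to 9.16) and 15.3%. Where intervals are given here, those of the 2 chromosome 12 stretches overlap, so counting error leaves their order unsettled.

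Some other chromosomes had low values too. In gene-poor megabases of chromosome 22, 8.57% of overexpression members and 20.8% of control members were at the average, below the first 80 Mb of chromosome 12 in both libraries. That chromosome had 7 such megabases with 350 overexpression members, against 40 with 1346. Chromosome 20 had 17.9% in the overexpression library and 40.4% in the control library, and chromosome 17 had 21.4% of overexpression and 41.0% of control members. Both lay above the first 80 Mb of chromosome 12 in the overexpression library and below it in the control library. The median over the 21 other autosomes was 40.2% in the overexpression library and 57.7% in the control library. No input library and no copy number data were used here.

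Overexpression and control lists shared more members on the first 80 Mb. Intervals of 77.0% of overexpression members on chromosome 12 overlapped a control interval (75.9 to 78.1), against 68.7% for the autosomes. Of control members, 45.0% overlapped an overexpression interval (44.0 to 46.0), against 42.7%. The overexpression shares were 82.5% on 12p, 84.0% on 12q to 80 Mb and 65.1% beyond, and the control shares 46.0%, 47.8% and 40.9%. An overlap also becomes more frequent as the other list grows denser, and the part of density in these shares was not tested.

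The overexpression library had fewer members than the control library on 12p, on 12q to 80 Mb and beyond, though not in every megabase. The megabases from 121000001, 122000001 and 132000001 had 81, 77 and 59 overexpression members, against 67, 66 and 49 control members. The overexpression density was 0.538 of the control density on 12p (0.507 to 0.571). This ratio was 0.551 on 12q to 80 Mb (0.520 to 0.584) and 0.623 beyond (0.588 to 0.661). It was 0.570 over both arms of chromosome 12, and the median of the other autosomes was 0.595, with a range of 0.553 to 0.924. At 2515 pairs of chromosome 12 summits within 100 bp of each other, the overexpression pileup relative to its genome average differed from that of the control by a median log2 ratio of 0.06 (SD 0.47 over pairs). On the other autosomes the median was 0.08 over 32487 pairs. The 12p median was 0.04, and the distal 12q median 0.06. The overexpression value was the higher at 55.3% of the chromosome 12 pairs and at 58.3% of the others, so single pairs differed in both directions. Such pairs exist only where both lists hold a summit.

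The densest megabase of the overexpression library was the one from 6000001, with 110.7 members per Mb against 122.2 in the control library. It touches 40 genes, among them VWF (clotting factor carrier), GAPDH and TPI1 (glycolysis), CHD4 (a chromatin remodeller) and CD4. The megabase from 2000001 followed with 106.3 per Mb in the overexpression library, and it was the highest in the control library with 151.7. It holds CACNA1C, which encodes a calcium channel subunit, and FOXM1, a cell cycle transcription factor. The third in the overexpression library, from 52000001, holds the type II keratin genes and had 106.1 members per Mb against 123.2 in the control library. None of these 3 megabases had a member at the genome average in either library. The next densest megabases of the control library, after the one from 2000001, did hold such members. The megabase from 12000001, with LRP6 and CDKN1B among its 13 genes, had 73.6 members per Mb in the overexpression library and 144.0 in the control library, and 0% of overexpression and 5.11% of control members were at the average. The first megabase of the chromosome, with the histone demethylase gene KDM5A among its 10 genes, had 87.9 overexpression and 136.1 control members per Mb, and 1.19% of overexpression and 6.92% of control members were at the average.

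The sparsest megabases mostly lay on distal 12q. ANKS1B, a synaptic scaffold gene, covers most of the megabase from 99000001, which had 12.1 members per Mb in the overexpression library and 30.2 in the control library, and 100% of these overexpression and 93.3% of these control members were at the average. The megabase from 115000001, at MED13L (a Mediator subunit), had 13.03 overexpression and 46.1 control members per Mb. One sparse megabase was on 12p, from 28000001 at CCDC91, with 13.1 overexpression and 34.1 control members per Mb. There, 7.69% of overexpression and 70.6% of control members were at the average. In the control library the 3 sparsest started at 81000001, 87000001 and 90000001, with 21.2, 20.04 and 16.1 members per Mb in the overexpression library, against 25.2, 27.1 and 28.2 in the control library.

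More members lay inside protein-coding genes than outside them. These genes spanned 62.6 Mb outside the gene-end windows, with overlapping spans counted more than once. The whole chromosome, centromeric stretch included, had 129.5 Mb outside those windows, and a preference for genes beyond this length was not tested. Of overexpression members, 54.5% lay in a protein-coding gene, 10.6% in a long noncoding RNA gene alone and 34.8% outside both. Of control members these were 52.02%, 11.4% and 36.6%. On the other autosomes 49.4% of overexpression and 48.3% of control summits lay in protein-coding genes. The median distance of a member from the nearest gene end was 26.2 kb in the overexpression library and 32.7 kb in the control library.

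Of 175 protein-coding genes of at least 100 kb on chromosome 12, 174 held a member in the overexpression library and 175 in the control library. This was near the count on the other autosomes, 2979 of 3034 in the overexpression library and 3022 of 3034 in the control library. The median was 38.8 members per Mb of gene body in the overexpression library and 86.1 in the control library for the 105 in the first 80 Mb. For the 70 beyond it was 35.1 in the overexpression library and 68.0 in the control library, and for 3034 genes of the other autosomes 31.2 in the overexpression library and 62.5 in the control library. Per Mb, overexpression members were densest at TSPAN9 (a tetraspanin gene), with 27 members against 15 in the control library. IQSEC3 followed with 14 overexpression and 13 control members, VWF with 22 overexpression and 28 control members, and CACNA2D4 (a calcium channel subunit gene) with 15 overexpression and 14 control members. KDM2B, a histone demethylase gene, was the fifth, with 19 overexpression and 14 control members. Control members were densest at B4GALNT3, TBC1D30, VWF, BORCS5 and RASSF3, which had 10, 7, 22, 10 and 14 members in the overexpression library, against 18, 20, 28, 18 and 30 in the control library. Among these genes KDM2B alone lies on distal 12q.

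CRY1, a circadian clock repressor, was the long gene without an overexpression member, and it had 3 in the control library. The next sparsest there were ANO4 with 2 overexpression and 9 control members, MED13L with 2 overexpression and 12 control members, FGD6 with 1 overexpression and 8 control members, and MUC19, a mucin gene on proximal 12q, with 1 overexpression and 3 control members. Sparsest in the control library were ACSS3, MUC19, ANO4, PPFIA2 and METTL25. Of these, ACSS3, PPFIA2 and METTL25 lie within 3 Mb of the border, with 5, 11 and 2 overexpression members against 3, 11 and 3 control members.

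Listed genes were read against all 1023 protein-coding genes of the chromosome, 69.2% of which held a member in the overexpression library and 73.7% in the control library. Short genes have little length outside the gene-end windows, so density is given over that length. Among 26 growth control and cancer genes, 19 held an overexpression member and 21 a control member, and the pooled density was 44.1 per Mb in the overexpression library and 86.4 in the control library. For all genes it was 47.9 in the overexpression library and 80.3 in the control library. ETV6, a transcriptional repressor often rearranged in leukaemia, had 14 overexpression and 25 control members. PIK3C2G, a lipid kinase gene, had 11 overexpression and 26 control members. LRP6, a Wnt co-receptor, had 9 overexpression and 21 control members, and HMGA2, a chromatin protein, had 8 overexpression and 14 control members. Fewer lay in CCND2, which encodes cyclin D2, with 2 overexpression and 5 control members, and in MDM2, the p53 ubiquitin ligase gene, with 3 overexpression and 5 control members. None was found in either library at CDKN1B, CDK2, BTG1, KITLG or DDIT3. CDK4 and FGF6 had no overexpression member, and 1 and 3 control members.

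Chromatin, replication and repair genes held members at 21 of 23 in the overexpression library and 22 of 23 in the control library, with pooled densities of 70.4 per Mb in the overexpression library and 84.4 in the control library. After KDM2B, the most overexpression members lay in RAD52 (recombination), with 11 overexpression and 10 control members, and in EP400 (a chromatin remodeller), with 10 overexpression and 7 control members. HDAC7, a histone deacetylase gene, had 8 overexpression members (3.45 to 15.8) and 0 control members (0 to 3.69), and these intervals overlap. ARID2, which encodes a SWI/SNF subunit, had 6 overexpression and 20 control members. KMT2D, a histone methyltransferase gene, had 5 overexpression and 8 control members. UNG (uracil removal from DNA) and PRIM1 (a primase) had no overexpression member, and 1 and 2 control members.

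**Figure D5:**
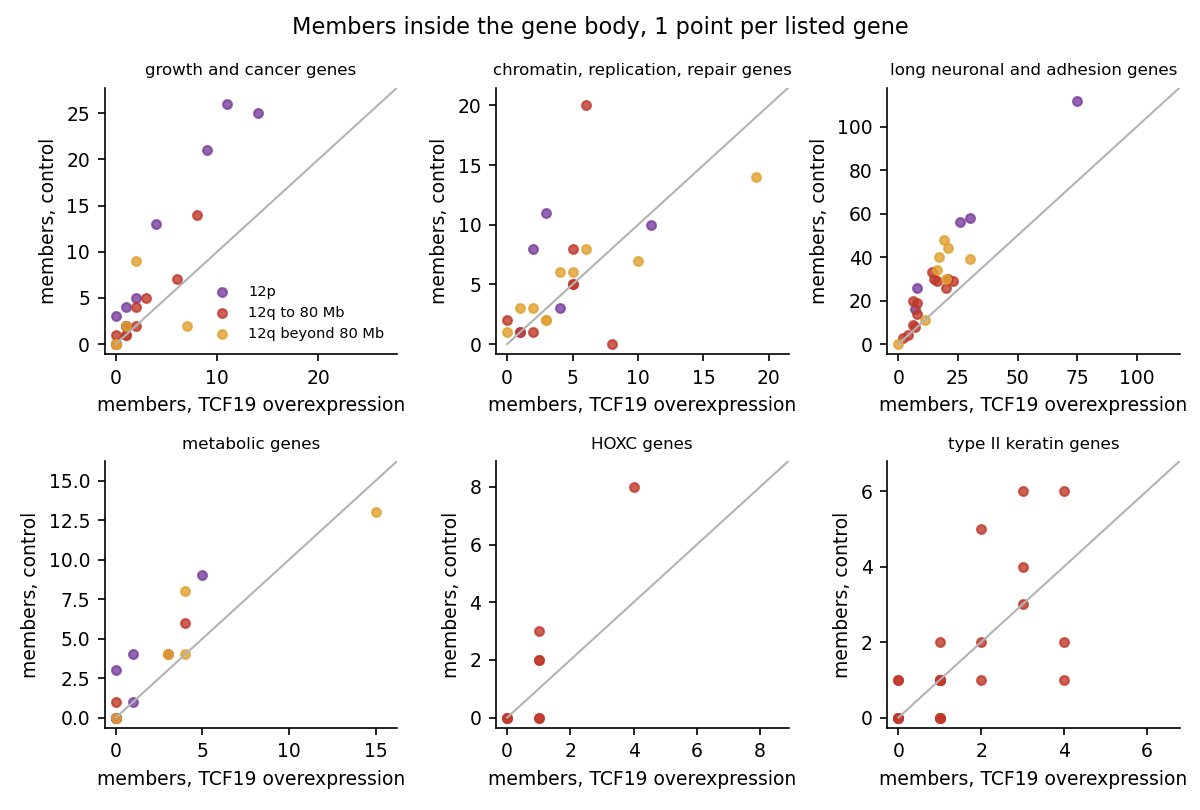
Number of members inside the gene body in the TCF19 overexpression library (horizontal axis) and the control library (vertical axis), 1 point per gene in 6 lists, coloured by stretch of chromosome 12, with the line of equal counts; points can coincide. Most long neuronal and adhesion genes lie above the line, led by CACNA1C with 75 overexpression and 112 control members, while HDAC7, with 8 overexpression and 0 control members, is the point farthest below it among chromatin genes. The exact Poisson intervals of the HDAC7 counts overlap.

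Of the 26 long neuronal and adhesion genes, 25 held a member in each library. Their pooled density was 36.4 members per Mb in the overexpression library and 65.0 in the control library, below the pooled density of all genes of the chromosome. CACNA1C had 75 overexpression members, 103.7 per Mb, and 112 control members, 154.9 per Mb, and CUX2, a transcription factor gene, followed in density with 30 overexpression and 39 control members. ERC1 had 30 overexpression and 58 control members. SOX5 and ANKS1B are both longer than CACNA1C. SOX5, a transcription factor gene, had 26 overexpression and 56 control members, and ANKS1B had 21 overexpression and 44 control members. SYT1, which encodes the calcium sensor of synaptic vesicles, lies just before the border and had 20 overexpression and 26 control members. PPFIA2, a synaptic scaffold gene just beyond it, had 11 in each library. SLC6A15 had none in either library.

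Of 16 metabolic genes, 9 held an overexpression member and 11 a control member. ACACB (fatty acid metabolism) had 15 overexpression and 13 control members, the glucose transporter gene SLC2A14 had 5 overexpression and 9 control members, and CS (citrate synthase) had 4 overexpression and 6 control members. GAPDH, TPI1, LDHB, COX6A1 and GPD1 had none in either library, and SLC2A3 and SHMT2 had no overexpression member and 3 and 1 control members. Reads of SLC2A14 and SLC2A3 can be exchanged between these near-identical copies, so their counts are uncertain. Of the 9 HOXC genes, which pattern the body axis, 6 held an overexpression member and 4 a control member, led by HOXC4 with 4 overexpression and 8 control members. HOXC8, HOXC9 and HOXC11 had none in either library, and HOXC10 and HOXC12 had 1 overexpression and 0 control members each. Several HOXC spans overlap, as do some keratin spans, and a member can be counted in more than 1 of them. The 26 type II keratin genes, the intermediate filament genes of epithelia, held members at 20 in the overexpression library and 18 in the control library. KRT8 had 4 overexpression and 6 control members, KRT86 had 3 overexpression and 6 control members, KRT7 had 4 overexpression and 2 control members, and KRT80 had 4 overexpression and 1 control member. KRT1, KRT6C, KRT76 and KRT83 had none in either library, KRT84 and KRT85 had 0 overexpression members and 1 control member each, and KRT4, KRT5 and KRT75 had 1 overexpression member and 0 control members each. Members at the closely similar KRT6A, KRT6B and KRT6C cannot be placed with certainty. All 9 HOXC and all 26 keratin genes lie on 12q before 80 Mb.

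The member of highest fold was the same place in both lists. The summit at 131577002 of the overexpression library had 79 reads (62.5 to 98.5) and a 10.6-fold enrichment, and the one at 131577001 of the control library had 117 reads (96.8 to 140.2) and 10.3-fold. It lies outside genes, 86772 bp from the nearest protein-coding gene end, and its pileup was the highest of all members in both libraries. The next in the overexpression library were at 55582263, 6651 bp from the olfactory receptor gene OR2AP1, with 30 reads against 21 in the control library, and at 9759058 in CD69, a lymphocyte activation receptor gene, with 23 reads against 14 in the control library. The next in the control library was at 7440299 in CD163L1, a scavenger receptor gene, where the overexpression library had 31 reads and the control library 34. It was followed by 25707298, with no overlapping peak in the overexpression library and 24 reads in the control library. A control summit of 24 reads in DPY19L2, a gene with near-identical copies, is uncertain.

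Of the 10 members of highest fold, 8 in the overexpression library and 9 in the control library lay in the first 80 Mb, where 65.5% of overexpression and 68.5% of control members lay. All 10 of the overexpression library, and 7 of the control library, overlapped an interval of the other list. In long noncoding RNA genes the highest folds of the overexpression library were at LINC02446, LINC02388, LOC105369949, LOC105369715 and LINC02955, with 24, 25, 22, 27 and 23 reads against 18, 24, 15, 22 and 20 in the control library. In the control library they were at LINC02882, LINC02388, IFNG-AS1, LOC105378250 and LINC02820. IFNG-AS1, next to the interferon gamma gene, had no overlapping peak in the overexpression library and 26 reads in the control library.

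Summits just inside and just outside the distance rule had similar pileups. Members at most 500 bp beyond the 1000 bp limit numbered 184 in the overexpression library and 208 in the control library, with median pileups of 19 reads in the overexpression library and 17 in the control library. The summits at most 500 bp short of it, which the rule left out, numbered 283 in the overexpression library, with a median of 19, and 312 in the control library, with a median of 16.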

How the data were processed

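One peak list per library was deposited, so the authors called peaks per library. Reads were aligned with BWA 0.7.12 and peaks called with MACS2 2.1.0 on hg38, per the submitters' processing notes. The sources used here state neither the parameters nor whether duplicates were removed or an input library was used. The deposited columns hold a score, a fold enrichment (a ratio), a −log10 p-value and a −log10 q-value per summit, and the score is 10 times the −log10 q-value, cut to a whole number, at 100% of overexpression and 99.9982% of control summits. Folds are the authors' values. The depth behind them was a genome average of 51.8 reads per 10 kb in the overexpression library and 58.0 in the control library.

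Pileups and backgrounds were solved from fold and p-value with a misfit of at most 0.001, which gave a whole pileup at 100% of summits, and the solver was tested on simulated data. The fragment length was set per library to the longest tried length that gave the largest share of whole reads. Backgrounds above the genome average were whole reads per 10 kb (tolerance 0.05 reads) at the length so chosen, 276 bp in the overexpression library and 273 bp in the control library. They match local read counts of the ChIP library itself, and folds are taken here without any input correction.

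Gene ends came from 19817 protein-coding genes of the RefSeq table (GRCh38.p14) placed on chromosomes 1 to 22 and X. The design named the longest gene-free stretch as the border of the arms, which failed on chromosomes 2 and 4, so the gene-free stretch around the longest summit-free gap was used for all. The 5 acrocentric chromosomes have 1 arm. Members per Mb are given with exact Poisson intervals and shares with Wilson intervals, both at 95%. Overlap needed 1 bp. Promoter windows were given for 21 of the 22 autosomes. Python 3.11.15, numpy 2.4.6, pandas 2.3.3 and scipy 1.17.1 were used.

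Named were the 10 members of highest fold per list and the 5 in noncoding genes, the 3 densest and 3 sparsest megabases, the 5 long genes with most and fewest members per Mb, and genes of 6 lists with most or no members. One listed gene is counted in its list and not reported by itself here. Printed sequences, and listed genes named with other counts, were chosen after their values were seen. The members and lists were chosen with earlier results of these data known. With 1 library per group, groups were compared by values alone. Alternatives covered the distance rule, peak thresholds, counting of intervals, length, overlap and background.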

Additional observations from a re-analysis of the deposited data

How the results depend on the processing

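Of 62 alternatives to 13 results, 29 moved the value by less than its counting interval, 33 moved it by more and 0 turned its direction. Beyond 10 kb from gene ends, chromosome 12 had 1.22 times the median autosome density in the overexpression library, 12q had 1.10 times the median arm in the overexpression library and 1.15 in the control library, and the ratio of overexpression to control density was 0.541. With no distance rule that ratio was 0.621. At a −log10 q of at least 3, chromosome 12 had 1.37, 12p 1.65 and 12q 1.20 in the overexpression library, against 1.48, 1.95 and 1.29 in the control library, and the ratio was 0.598. At a fold of at least 4, 12p had 1.59 in the overexpression library, and 12p had 2.102, chromosome 12 had 1.53 and 12q had 1.37 in the control library, and the ratio was 0.638. Length from occupied 100 kb stretches gave 1.32 for chromosome 12 in the control library.

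Overlapping members were 71.7% of overexpression and 39.7% of control members when 50% of the interval had to overlap, and 69.2% of overexpression and 42.1% of control members at a −log10 q of at least 3. Beyond 10 kb the overexpression share was 79.3%. The median local background relative to the other autosomes was 1.19 in the overexpression library and 1.16 in the control library. It was 1.07 in both libraries above the genome average alone, 1.16 (overexpression) and 1.15 (control) beyond 10 kb, and 1.13 in the control library by megabase medians. The share of members at the genome average in gene-poor megabases of the first 80 Mb was 0.282 of that beyond in the overexpression library and 0.711 in the control library. Alternatives chosen after seeing the data gave 0.378 (overexpression) and 0.792 (control) with the border at 85 Mb, 0.326 (overexpression) and 0.778 (control) on 12q alone, and 0.329 in the overexpression library with at most 2 genes. The causes of these shifts were not tested.

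No paired analysis was possible because each group had 1 library. Without replicates, no difference between the groups can be set against a spread between cultures. The lists hold called peaks alone, so stretches without peaks give no read density, and backgrounds below the genome average cannot be seen.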

Other observations

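A few values belong to no comparison. Among gene-poor megabases, those touching at most 5 protein-coding genes, chromosome 4 had the largest share of members at the genome average, 56.0% in the overexpression library and 74.0% in the control library. Chromosome 19 had 20% in the overexpression library and 30.1% in the control library, from 2 megabases. The ratio of the density of the overexpression library to that of the control library was 0.533 on 6q, the lowest of 39 arms, and 0.538 on 12p and on 20p, the next. It was above 1 on 19p alone, at 1.04.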
